A study of Mus musculus with 14 samples.

Results

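Immediate early genes of the AP-1 and Egr families, with Nr4a1 and Ier2, were followed in activated mouse B cells that lack miR-155, that carry PU.1 out of reach of miR-155, or that are wild type. The 10 members were Fos, Fosb, Jun, Junb, Jund, Ier2, Egr1, Egr2, Egr3 and Nr4a1, taken by gene symbol from a deposited table of 22295 rows, and all 10 were found there. The libraries hold polyadenylated RNA of splenic B cells, purified by negative selection and stimulated in culture for 4 days with the bacterial product LPS (5 µg/ml) and the cytokine IL-4 (10 ng/ml). The miR155_KO group has 5 libraries of miR-155[-/-] mice, which lack the microRNA in every cell and not in B cells alone. The PU1_KI group has 5 libraries of PU.1[155-/155-] mice, in which the miR-155 site in the 3′ UTR of the PU.1 gene is mutated while miR-155 itself is left in place. The WT group has 4 libraries of wild-type mice. All 3 groups received the same stimulus and no group was left unstimulated. The design text calls the replicates biological. The sources used here give no age, sex or strain.

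Immediate early genes are transcribed within minutes of a stimulus from factors already present in the cell, and their mRNAs decay fast. In B cells they are known as a read-out of antigen receptor, CD40 and Toll-like receptor signals through the ERK, JNK and p38 kinases, with the serum response factor Srf and its ETS partners acting at many of their promoters. Fos proteins bind DNA only as dimers with Jun proteins, forming AP-1, whereas Egr proteins are zinc finger factors and Nr4a1 is an orphan nuclear receptor.

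The sequences that bear on the design are the seed of miR-155 and its matches in the members' 3′ UTRs, shown because the KO genotype removes this microRNA. The mature microRNA is given from RefSeq (GRCm38.p6, chr16:84714143-84714165, plus strand), with the seed, bases 2 to 8, in capitals, and the 2 sites from GENCODE M21 (GRCm38), with the 6 bases that pair to bases 2 to 7 of the microRNA in capitals.
mmu-miR-155-5p: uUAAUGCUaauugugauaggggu
Fos 3′ UTR site, chromosome 12: gcccgagctggtGCATTAcagagaggagaa
Jun 3′ UTR site, chromosome 4: aacctctttgctGCATTAtccatagataat

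The full seed match of 7 bases, AGCATTA, was in 0 of the 10 members' 3′ UTRs, and 8.24% of 20957 genes with a 3′ UTR hold it. The 8-base form AGCATTAA is in 2.95% of those genes. The shorter match GCATTA, in 19.3% of them, was found once in Fos, at bases 56 to 61 of 815, and once in Jun, at bases 752 to 757 of 1233. A missing match says only that these letters are not in these UTR models.

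Promoters are shown for 5 of the 7 members that the RefSeq table (GRCm38.p6) holds: Fos and Fosb, which fell most, Jun and Junb, and Egr2. Those of Jund and Nr4a1 were searched but are not shown. Each line gives the 120 bases before a transcript start, and capitals mark the motifs found by search on both strands.
Fos, chr12:85473770-85473889, plus strand: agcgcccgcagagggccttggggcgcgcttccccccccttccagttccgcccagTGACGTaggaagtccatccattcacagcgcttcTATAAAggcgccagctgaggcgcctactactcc
Fosb, chr7:19310046-19310165, minus strand: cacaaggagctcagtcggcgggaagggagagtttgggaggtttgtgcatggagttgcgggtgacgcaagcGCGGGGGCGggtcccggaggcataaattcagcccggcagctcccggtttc
Jun, chr4:95052223-95052342, minus strand: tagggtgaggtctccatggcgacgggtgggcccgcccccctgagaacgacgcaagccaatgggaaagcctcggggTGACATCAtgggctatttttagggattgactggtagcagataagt
Junb, chr8:84978749-84978868, minus strand: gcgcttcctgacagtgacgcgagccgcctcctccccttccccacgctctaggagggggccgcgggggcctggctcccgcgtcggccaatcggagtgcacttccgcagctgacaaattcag
Egr2, chr10:67537749-67537868, plus strand: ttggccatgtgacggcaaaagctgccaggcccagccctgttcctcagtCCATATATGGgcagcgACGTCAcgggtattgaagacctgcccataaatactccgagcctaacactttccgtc

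The search covered 250 bases before each start, and 7 of the 10 members were matched, with 11 starts. The short cyclic AMP response element TGACGT lay at positions -66 to -61 in Fos and -56 to -51 in Egr2, and it is in 7.29% of 27025 genes. Its full form TGACGTCA, of which it is a part, is in 1.77% of genes and was in none of the 7 members. The CArG box, which binds Srf, was found in Egr2 at -72 to -63 of the start shown and is in 1.62% of genes. Not every start of Egr2 held it, and boxes more than 250 bases before a start were not searched for. The Jun stretch holds TGACATCA at -45 to -38, a variant AP-1 element found in 3.41% of genes, and Fosb and Nr4a1 hold the Egr element GCGNGGGCG, found in 5.33%, at -50 to -42 and -60 to -52. TATAAA, in 14.3% of genes, lay at -33 to -28 in Fos, and the AP-1 consensus TGANTCA, in 7.82%, was not found in the 7. Junb and Jund matched none of the 7 motifs, which says only that these letters are absent from the windows. The matches describe the sequence and are not evidence of binding.

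Sequencing depth, recovered from the RPKM values, was 31.5 to 52.4 M reads per library. PU.1, listed as Sfpi1, stood at 15.5 to 18.3 RPKM in miR155_KO, 21.1 to 26.0 in PU1_KI and 9.73 to 13.2 in WT, so every PU1_KI library lay above every WT library. The 6 B cell markers summed to 1348 to 1462 RPKM in miR155_KO, 1528 to 1779 in PU1_KI and 1488 to 1719 in WT. The 4 plasma cell markers summed to 113 to 219 RPKM in miR155_KO, 86.1 to 166 in PU1_KI and 257 to 325 in WT, so their sum was lower in every mutant library than in any WT library. Tnfrsf17 among them stayed under 0.5 RPKM everywhere. Markers of T cells, NK cells, neutrophils and erythroid cells summed to under 1 RPKM in every library, with S100a8, S100a9, Ly6g and Hbb-b1 at 0. Macrophage markers summed to 5.79 to 6.37 RPKM in miR155_KO, 10.5 to 12.1 in PU1_KI and 6.53 to 7.62 in WT. Lyz2, Cd14 and Csf1r among them stayed under 0.5 RPKM everywhere. The 4 markers of stroma and endothelium summed to 3.095 to 3.85 RPKM in miR155_KO, 6.76 to 7.53 in PU1_KI and 6.51 to 7.41 in WT, so they were lower in every miR155_KO library than in any other; Col1a1, Col1a2 and Cdh5 among them stayed under 0.5 RPKM everywhere. Dendritic cell markers summed to 23.7 to 30.4 RPKM in miR155_KO, 25.3 to 32.0 in PU1_KI and 15.7 to 20.1 in WT. Clec9a, Siglech and Itgax among them stayed under 0.5 RPKM everywhere. The part of these shifts in the results below was not tested. In bulk RNA, fewer cells of a type and less RNA per cell cannot be told apart.

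Most of the set was lower in B cells without miR-155. Against WT, 7 of the 10 members fell in miR155_KO (Fos, Fosb, Junb, Jund, Ier2, Egr1 and Egr2), 2 rose (Egr3 and Nr4a1) and Jun did not pass. Among all 9627 tested genes, 62.5% were called in this comparison, 35.3% lower and 27.2% higher, so a call alone is common here. The members' median log2 fold change was -0.62, against -0.05 over all tested genes. Values did not overlap between the groups for Fos, Fosb, Egr1 and Egr2, all lower, and for Nr4a1, higher. It was only through groups where they were higher that Fosb and Nr4a1 passed the filter, which limits their calls. Of all tested genes 48.4% had groups without overlap, 24.9% lower and 23.5% higher. With no filter on low values the calls of Junb, Jund, Ier2 and Egr3 ended (adjusted p = 0.0669, 0.0851, 0.0511 and 0.0791).

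Against PU1_KI the same 7 members and Jun fell in miR155_KO, Nr4a1 rose and Egr3 did not pass. Of all tested genes 64.3% were called, 46.4% lower and 17.9% higher. The members' median log2 fold change was -0.73, against -0.13 over all genes. That general shift depended on scaling: the split was 1725 higher and 4467 lower as deposited, 2725 and 3378 with median-of-ratios scaling, and 2831 and 3216 with quantile normalization, where the median was -0.02. Relative to the median of all genes, the members that fell lay between -0.27 for Jun and -1.32 for Fosb on the log2 scale. Fos, Fosb, Egr1, Egr2 and Ier2 were lower without overlap and Nr4a1 was higher without overlap. Of all tested genes 43.1% had no overlap, 29.7% lower and 13.4% higher.

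In PU1_KI against WT 3 of the 10 members were called, Fos and Fosb lower and Nr4a1 higher, and the other 7 did not pass. Of all tested genes 27.7% were called, 4.03% lower and 23.7% higher, so the members' share was near that of all genes. Here 0 members had groups without overlap, against 22.1% of tested genes, 3.76% lower and 18.4% higher. The members' median log2 fold change was 0.04 and that of all genes 0.08. The split of all calls was 2279 higher and 388 lower as deposited, but 1681 and 1498 with median-of-ratios scaling and 1520 and 1549 with quantile normalization. Under both of those scalings the members' calls became 3 lower, with Egr1 joining Fos and Fosb, and 0 higher. The comparisons share libraries, since each genotype enters 2 of them.

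**Figure D1:**
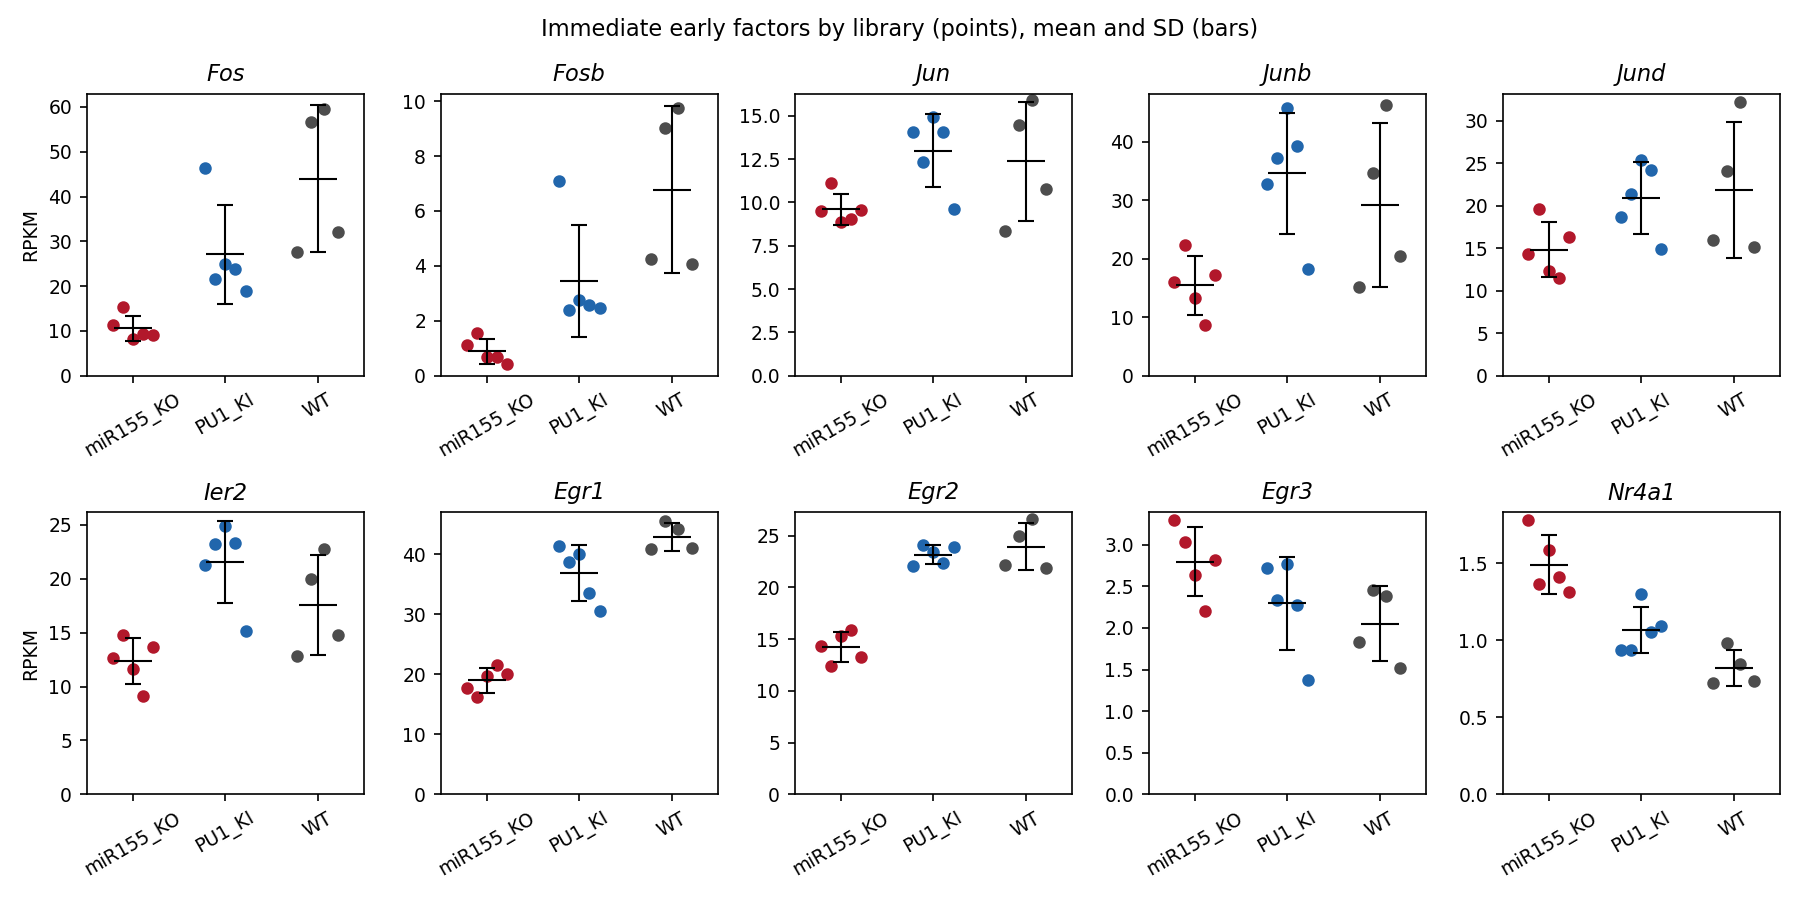
RPKM of each member (one panel per gene, linear axis from 0) in every library, grouped as miR155_KO, PU1_KI and WT; points are libraries, the long bar is the mean and the short bars are 1 SD. Fos, Fosb, Egr1 and Egr2 lie lower in all 5 miR155_KO libraries than in any other library, while Nr4a1 lies highest there.

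Fos and Fosb, the 2 Fos proteins of the set and obligate partners of Jun in AP-1, fell furthest. Fos (ENSMUSG00000021250, NCBIM37 chromosome 12 from 86814840 to 86818223, plus strand) stood at 11.3, 15.2, 8.23, 9.25 and 9.10 RPKM in miR155_KO, 46.3, 21.5, 24.9, 23.8 and 18.9 in PU1_KI and 27.7, 56.6, 59.5 and 32.1 in WT. Every miR155_KO library lay below every other library, and in PU1_KI the first library stood far above its 4 companions, inside the WT range. The mean was 10.6 ± 2.82 RPKM in miR155_KO (SD, n = 5), 27.1 ± 10.97 in PU1_KI (n = 5) and 44.0 ± 16.4 in WT (n = 4), and these n hold throughout. Fos was lower in miR155_KO than in WT by 3.87-fold (log2 fold change -1.95 ± 0.24 SE, adjusted p = 9.37e-07) and lower than in PU1_KI by 2.41-fold (-1.27 ± 0.23, adjusted p = 8.10e-05).

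Fosb (ENSMUSG00000003545, chromosome 7 from 19888070 to 19895394, minus strand) followed Fos at a lower level. Its values were 1.11, 1.55, 0.673, 0.682 and 0.411 RPKM in miR155_KO, 7.09, 2.38, 2.74, 2.59 and 2.47 in PU1_KI and 4.24, 9.04, 9.74 and 4.08 in WT. The miR155_KO libraries again lay below all others, the first PU1_KI library stood apart, and the WT libraries fell into a lower and a higher pair. Fosb reached 1 RPKM in 2 of the 5 miR155_KO libraries. The PU1_KI and WT libraries reached 1 RPKM in all 5 and all 4. It was through these groups that the gene passed the filter and could be tested. The difference from WT was a log2 fold change of -2.35 ± 0.29 (adjusted p = 9.36e-07), and that from PU1_KI was -1.46 ± 0.27 (adjusted p = 0.00013). The first is 5.10-fold lower with 0.5 RPKM added, which understates the change at this level. Mean RPKM was 0.885 in miR155_KO and 6.78 in WT. For both genes these differences of miR155_KO stayed past the threshold with each single library left out and in each alternative setting that kept the gene; a filter of 5 RPKM removed Fosb.

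In PU1_KI the Fos genes were called lower than in WT on a narrower margin. The log2 fold change was -0.68 ± 0.24 for Fos (adjusted p = 0.0386) and -0.89 ± 0.29 for Fosb (adjusted p = 0.0257). For both genes the call ended without PU1_KI library 2, 3, 4 or 5 or without WT library 2 or 3, with adjusted p from 0.0672 to 0.137 for Fos and from 0.0536 to 0.0948 for Fosb. With no filter, which raised the genes tested to 16526, it ended as well (adjusted p = 0.122 and 0.0941). Without the high first PU1_KI library the difference was larger, -0.89 for Fos (adjusted p = 0.00404) and -1.16 for Fosb (adjusted p = 0.00197).

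The 3 Jun genes moved less than the Fos genes. Junb, a Jun protein that can also temper AP-1 activity, stood at 16.0, 22.3, 13.3, 8.69 and 17.2 RPKM in miR155_KO, 32.8, 37.3, 45.8, 39.2 and 18.2 in PU1_KI and 15.2, 34.7, 46.4 and 20.5 in WT. The miR155_KO values overlapped those of both other groups, through PU1_KI library 5 and WT libraries 1 and 4. Junb was 2.20-fold lower in miR155_KO than in PU1_KI (log2 fold change -1.14 ± 0.27, adjusted p = 0.00138), a call kept in every alternative. Against WT the log2 fold change was -0.83 ± 0.29 (adjusted p = 0.0187), and the call ended without miR155_KO library 4, WT library 2 or WT library 3 (adjusted p 0.0505 to 0.0878).

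Jun, the founding member of the family, stood at 9.52, 11.1, 8.86, 9.03 and 9.58 RPKM in miR155_KO, 14.04, 12.3, 14.9, 14.1 and 9.62 in PU1_KI and 8.37, 14.5, 15.9 and 10.8 in WT. The miR155_KO libraries were close together and the WT libraries spread to both sides of them. Jun fell against PU1_KI (log2 fold change -0.40 ± 0.13, adjusted p = 0.0138), a call that ended with median-of-ratios scaling (-0.30, adjusted p = 0.071) and quantile normalization (-0.26, adjusted p = 0.111). Against WT Jun missed the threshold (log2 fold change -0.31 ± 0.14, adjusted p = 0.065), and it passed without miR155_KO library 2, PU1_KI library 5 or WT library 1 (adjusted p 0.00245 to 0.045).

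Jund, the Jun protein that is usually present without a stimulus, stood at 14.4, 19.6, 12.3, 11.5 and 16.3 RPKM in miR155_KO, 18.7, 21.4, 25.4, 24.3 and 14.9 in PU1_KI and 16.0, 24.1, 32.2 and 15.2 in WT. All 3 groups overlapped. Its log2 fold change in miR155_KO was -0.50 ± 0.19 against WT (adjusted p = 0.0282) and -0.49 ± 0.18 against PU1_KI (adjusted p = 0.0248). The first call ended without miR155_KO library 3 or 4 or WT library 2 or 3 (adjusted p 0.0655 to 0.143), and the second without miR155_KO library 3 or 4 or PU1_KI library 3 or 4 (adjusted p 0.0629 to 0.0667). Quantile normalization ended both (adjusted p = 0.0693 and 0.163), and median-of-ratios scaling and testing with no filter ended the second (adjusted p = 0.0885 and 0.0796).

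Ier2, a small nuclear protein induced with the AP-1 genes, followed the Jun genes and not the Fos genes. It stood at 12.6, 14.7, 11.7, 9.11 and 13.7 RPKM in miR155_KO, 21.3, 23.2, 24.9, 23.3 and 15.1 in PU1_KI and 12.8, 19.995, 22.8 and 14.7 in WT. Every miR155_KO library lay below every PU1_KI library, while WT libraries 1 and 4 lay within or at the edge of the miR155_KO range. The log2 fold change in miR155_KO was -0.78 ± 0.15 against PU1_KI (adjusted p = 0.000182), kept in every alternative, and -0.47 ± 0.16 against WT (adjusted p = 0.0146). The call against WT ended without WT library 2 or 3 (adjusted p 0.054 to 0.0689). Between PU1_KI and WT, Ier2 had a log2 fold change of 0.30 ± 0.16 (adjusted p = 0.166), Junb 0.31 ± 0.29 (adjusted p = 0.464), Jun 0.09 ± 0.14 (adjusted p = 0.675) and Jund -0.02 ± 0.19 (adjusted p = 0.956). Ier2 passed there without PU1_KI library 5 or WT library 3 (adjusted p 0.0412 to 0.0437).

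**Figure D2:**
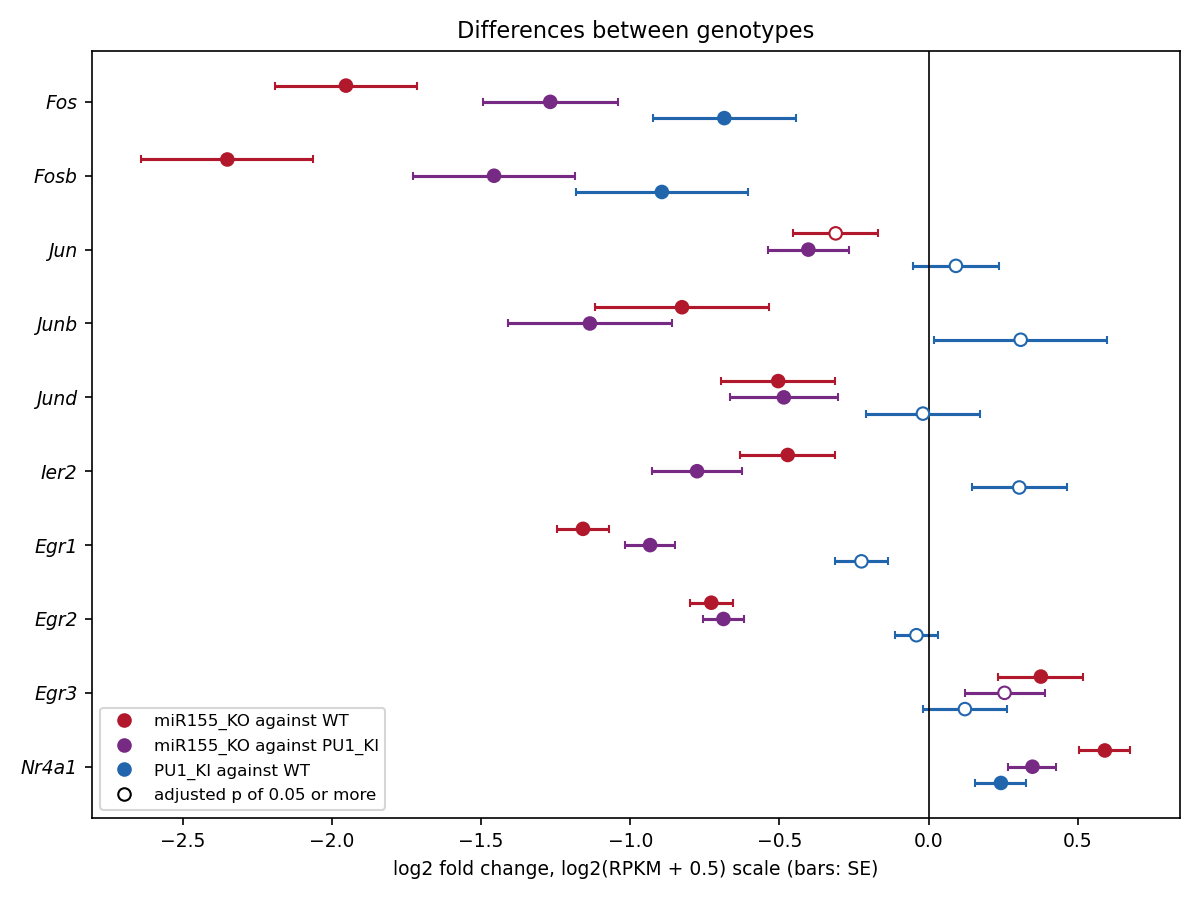
Log2 fold change of each member on the log2(RPKM + 0.5) scale for miR155_KO against WT, miR155_KO against PU1_KI and PU1_KI against WT; bars are SE and open points did not pass an adjusted p of 0.05. Fos and Fosb lie furthest to the left in miR155_KO against WT, at -1.95 and -2.35, and Egr3 and Nr4a1 lie to the right of 0.

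Egr1 and Egr2 fell in miR155_KO with less spread between libraries than the Fos and Jun genes. Egr1, the zinc finger factor most used as a marker of ERK signalling, is ENSMUSG00000038418 (chromosome 18 from 35020861 to 35024638, plus strand). Its values were 17.8, 16.1, 19.8, 21.5 and 19.99 RPKM in miR155_KO, 41.4, 38.7, 40.2, 33.6 and 30.6 in PU1_KI and 41.0, 45.6, 44.3 and 41.0 in WT. The miR155_KO libraries lay apart below both other groups, whereas the highest PU1_KI library reached the lowest WT libraries. Egr1 was 2.23-fold lower in miR155_KO than in WT (log2 fold change -1.16 ± 0.09, adjusted p = 1.51e-09) and 1.91-fold lower than in PU1_KI (-0.93 ± 0.08, adjusted p = 1.72e-08). Egr1 missed the threshold in PU1_KI against WT (log2 fold change -0.23 ± 0.09, adjusted p = 0.0654), while it passed with median-of-ratios scaling (-0.31, adjusted p = 0.0226), with quantile normalization (-0.30, adjusted p = 0.0327) and without PU1_KI library 1 (-0.27, adjusted p = 0.0309).

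Egr2, which with Egr3 restrains antigen receptor signalling in lymphocytes, is ENSMUSG00000037868 (chromosome 10 from 66998223 to 67004936, plus strand). It stood at 14.3, 12.4, 15.3, 15.9 and 13.2 RPKM in miR155_KO, 22.1, 24.1, 23.5, 22.3 and 23.9 in PU1_KI and 22.2, 25.0, 26.6 and 21.8 in WT. The miR155_KO libraries lay apart below the rest, and PU1_KI lay within the WT range. Its log2 fold change in miR155_KO was -0.73 ± 0.07 against WT (adjusted p = 6.33e-08) and -0.69 ± 0.07 against PU1_KI (adjusted p = 7.73e-08), and in PU1_KI against WT it was -0.04 ± 0.07 (adjusted p = 0.718). The calls of Egr1 and Egr2 in both miR155_KO comparisons held in every alternative.

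Egr3 and Nr4a1 went the other way at low levels. Egr3 stood at 3.30, 3.03, 2.63, 2.20 and 2.81 RPKM in miR155_KO, 2.72, 2.34, 2.76, 2.28 and 1.38 in PU1_KI and 1.84, 2.46, 2.39 and 1.52 in WT. The groups overlapped, with miR155_KO library 4 below the higher WT pair. Egr3 passed as higher in miR155_KO against WT (log2 fold change 0.38 ± 0.14, adjusted p = 0.0275), a call that ended without miR155_KO library 1 or 2 or WT library 1 or 4 (adjusted p 0.0566 to 0.126) and with quantile normalization (adjusted p = 0.0782). Its log2 fold change of 0.25 ± 0.13 against PU1_KI missed the threshold (adjusted p = 0.103), but passed without miR155_KO library 4 (0.32, adjusted p = 0.0436). Between PU1_KI and WT it was 0.12 ± 0.14 (adjusted p = 0.564).

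Nr4a1, the receptor also called Nur77 and a reporter of antigen receptor signal strength, is ENSMUSG00000023034 (chromosome 15 from 101097277 to 101105223, plus strand). It stood at 1.78, 1.37, 1.59, 1.41 and 1.32 RPKM in miR155_KO, 0.936, 0.937, 1.30, 1.05 and 1.097 in PU1_KI and 0.724, 0.980, 0.846 and 0.739 in WT. The miR155_KO libraries lay above all others, and PU1_KI overlapped WT at its low end. Nr4a1 passed the filter through the mutants, since 0 of 4 WT libraries reached 1 RPKM, so it could enter the test only where some group was higher. Its log2 fold change in miR155_KO was 0.59 ± 0.09 against WT (adjusted p = 7.2e-06) and 0.35 ± 0.08 against PU1_KI (adjusted p = 0.000961), and both held in every alternative that kept the gene. Between PU1_KI and WT it was 0.24 ± 0.09 (adjusted p = 0.0398), and this call ended under median-of-ratios scaling (0.18, adjusted p = 0.119) and quantile normalization (0.11, adjusted p = 0.361), with no filter (0.24, adjusted p = 0.075) and with a correction for GC content (0.12, adjusted p = 0.286). That call also ended without PU1_KI library 3, 4 or 5 or WT library 1, 3 or 4 (adjusted p 0.0561 to 0.128).

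Mean ratios between and within the families differed between genotypes. RPKM is per length of gene, but the gene models were not stated, so levels of different genes compare only roughly. Fos plus Fosb came to 11.5 ± 3.25 RPKM in miR155_KO, 30.5 ± 13.0 in PU1_KI and 50.7 ± 19.4 in WT, while Jun, Junb and Jund summed to 39.96 ± 9.03 RPKM in miR155_KO, 68.6 ± 16.4 in PU1_KI and 63.5 ± 25.3 in WT. The ratio of Fos to that Jun sum was 0.211 to 0.316 in miR155_KO, 0.289 to 0.706 in PU1_KI and 0.630 to 0.772 in WT, so miR155_KO and WT did not overlap. Junb made up 38.1% ± 4.86 of the Jun sum in miR155_KO, 49.8% ± 4.24 in PU1_KI and 44.8% ± 4.70 in WT. Its share ran from 29.7% to 42.1% in miR155_KO, 42.6% to 53.2% in PU1_KI and 38.4% to 49.1% in WT, so miR155_KO and WT overlapped. These ratios were not tested.

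Fos and Fosb both fell in miR155_KO, by log2 fold changes of -1.95 ± 0.24 and -2.35 ± 0.29 against WT. Fosb was at only 0.411 to 1.55 RPKM there, so a ratio to it is unstable. The ratios below were not tested. The ratio of Fos to Fosb RPKM was 13.6 ± 5.01 in miR155_KO, 8.30 ± 1.17 in PU1_KI and 6.69 ± 0.81 in WT, ranging from 9.82 to 22.1 in miR155_KO, above the highest value of 9.21 in PU1_KI and 7.87 in WT. Among the Egr genes, Egr1 was 1.34 ± 0.10 times as high as Egr2 in miR155_KO, 1.60 ± 0.22 times in PU1_KI and 1.80 ± 0.09 times in WT. Egr3 made up 7.85% ± 1.67 of the summed Egr level in miR155_KO, 3.65% ± 0.70 in PU1_KI and 2.95% ± 0.46 in WT, with no overlap between miR155_KO and the rest.

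By mean RPKM, which compares different genes only roughly, the order of the members also differed between genotypes. In miR155_KO it was led by Egr1 at 19.04, Junb at 15.5, Jund at 14.8 and Egr2 at 14.2 RPKM, with Fos sixth and Fosb last at 0.885 RPKM, above 1.29% of tested genes. In PU1_KI Egr1 at 36.9 and Junb at 34.7 RPKM came first and Fos at 27.1 was the third. In WT Fos at 44.0 and Egr1 at 43.0 RPKM led, above 92.5% and 92.2% of tested genes, and Fosb was eighth at 6.78 RPKM, above 48.5%. Neighbours such as Fos and Egr1 in WT, or Junb, Jund and Egr2 in miR155_KO, lay closer than 1 SD of their libraries.

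Libraries of one genotype differed from each other in these genes more than in most. The residual SD within genotypes, on the log2 scale, was 0.56 for Junb and for Fosb, 0.46 for Fos and 0.37 for Jund, above that of 99.9%, 99.9%, 99.8% and 99.4% of tested genes, whose median was 0.10. Ier2 at 0.30, Jun at 0.27 and Egr3 at 0.26 lay above 98.4% or more of genes. Egr1 at 0.15, Nr4a1 at 0.13 and Egr2 at 0.12 were nearer the general level, above 87.1%, 78.8% and 65.5%. For Jun, Junb, Jund and Ier2 counting error was small beside this. By the recovered depth they rested on about 537 to 3345 reads per library, a counting error of 1.73% to 4.32%. It was not worked out for the other members, among them the low genes Fosb, Egr3 and Nr4a1.

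**Figure D3:**
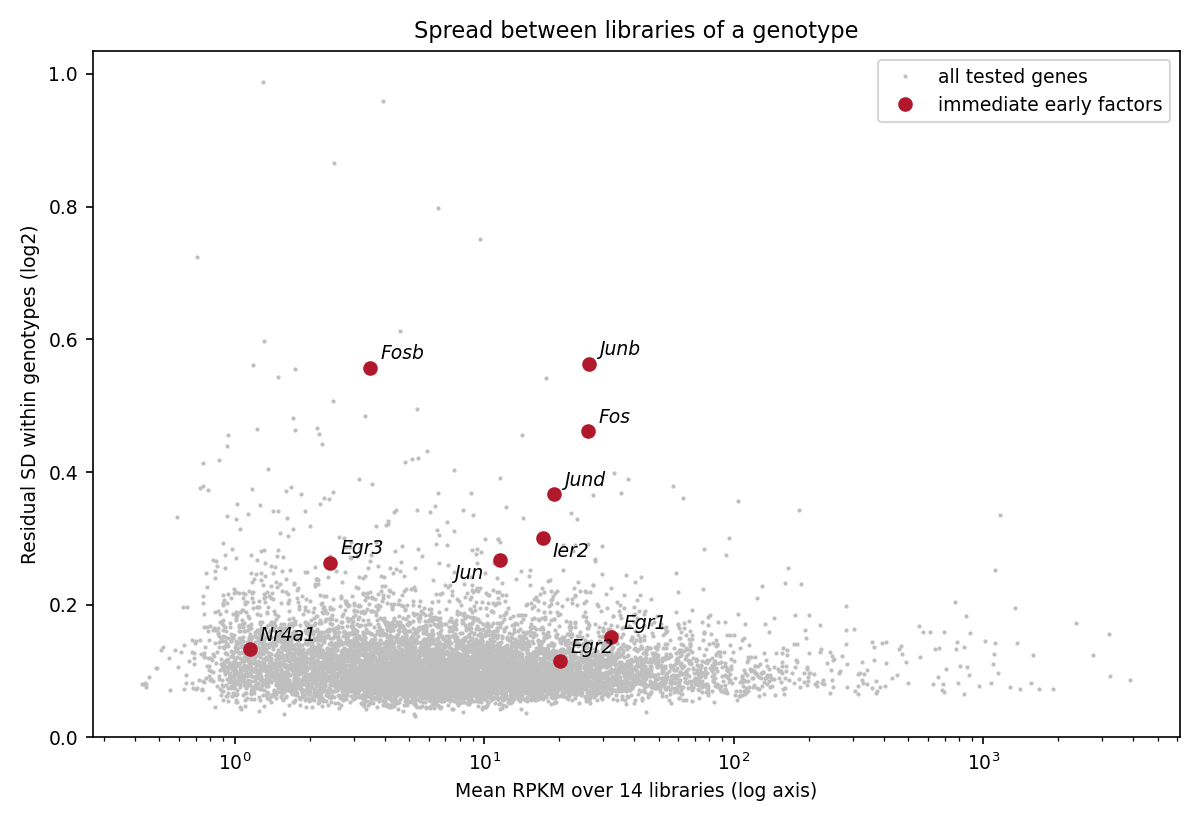
Residual SD of log2(RPKM + 0.5) within genotypes against mean RPKM over 14 libraries (log axis), for all 9627 tested genes (grey) and the 10 members (red). Junb, Fosb, Fos and Jund stand near the top of the cloud at 0.37 to 0.56, whereas Egr1, Nr4a1 and Egr2 lie inside it at 0.12 to 0.15.

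The deviations were shared between members. In WT, all 10 members were above their genotype mean in libraries 2 and 3 and 0 of 10 were above it in libraries 1 and 4. The share of all tested genes with this pattern was not worked out, so it is not shown to be particular to the members. In miR155_KO, library 2 was above the mean in all 6 of Fos, Fosb, Jun, Junb, Jund and Ier2, by 0.44 on average on the log2 scale, and libraries 3 and 4 in 0 of the 6. Among the PU1_KI libraries, library 5 was below the mean in all 6, by -0.48 on average. Library 1 of that group deviated upward by 0.84 in Fos and 1.06 in Fosb, but by 0.12 in Jun, -0.02 in Junb, -0.13 in Jund and 0.00 in Ier2. Egr1 and Egr2 did not follow in miR155_KO library 2, where they deviated by -0.23 and -0.18.

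Base composition moved with part of this spread. Jund, Junb and Ier2 have a transcript GC content of 67.1%, 62.6% and 60.9%, against a median of 50% over tested genes, while Fos has 51.9% and Egr2 51.4%. Egr1 at 57.3% and Nr4a1 at 57.0%, which varied less between libraries, also lay above that median. The median deviation of the tenth of tested genes richest in GC was -0.21 in WT library 1, 0.13 in WT library 3 and -0.15 in miR155_KO library 4, the same sign as Junb there, and -0.12 in PU1_KI library 1, where Fos and Fosb were high. That median was only -0.07 in PU1_KI library 5, where Junb deviated by -0.85. In PU1_KI library 2 it was -0.04 and Junb deviated by 0.17, the opposite sign. With a correction for GC content the calls of Junb, Jund and Ier2 in both miR155_KO comparisons held, the call of Jun against PU1_KI ended (-0.23, adjusted p = 0.11) and Egr3 passed against PU1_KI (0.41, adjusted p = 0.0255). The same correction, in PU1_KI against WT, ended the call of Nr4a1 (0.12, adjusted p = 0.286) and brought Egr1 past the threshold as lower (-0.35, adjusted p = 0.0183). Which other features of the libraries moved with these deviations was not tested, and culture day and sequencing pool are not given per library.

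**Figure D4:**
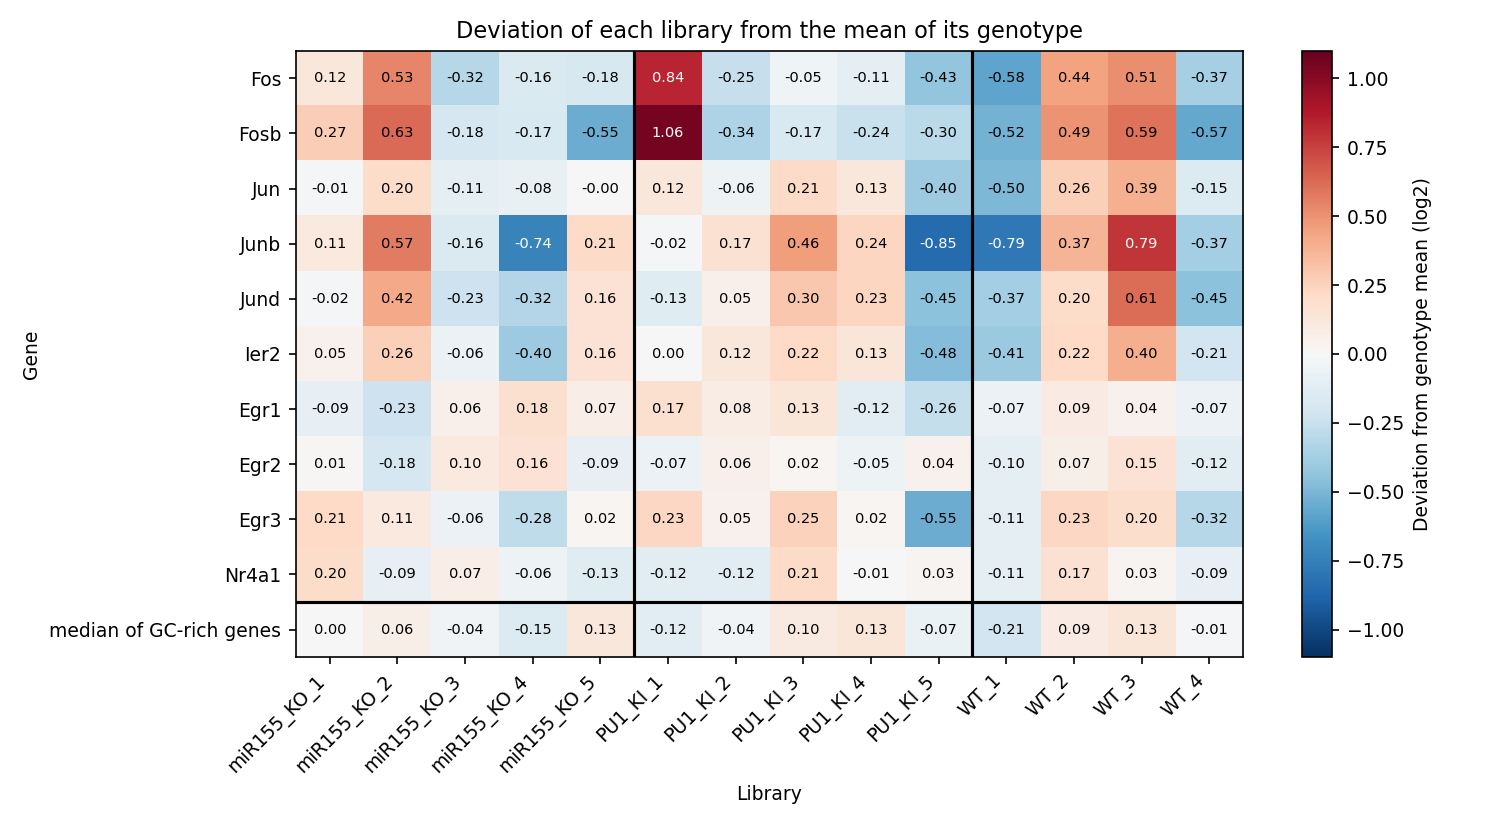
Deviation of each library from the mean of its genotype on the log2 scale (colour and printed value), for the 10 members and, in the bottom row, the median of the tenth of tested genes richest in GC; vertical lines separate miR155_KO, PU1_KI and WT. WT libraries 2 and 3 are above and libraries 1 and 4 below the mean in every member, and PU1_KI library 1 is high in Fos and Fosb at 0.84 and 1.06.

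Wider lists of the same pathways, 93 genes with 78 tested rows, were read from the same fit. In miR155_KO against WT 28 rose and 25 fell, 67.9% called against 62.5% of all genes. In miR155_KO against PU1_KI 14 rose and 28 fell, 53.8% against 64.3%, and in PU1_KI against WT 25 rose and 6 fell, 39.7% against 27.7%. Scaling moved these splits: median ratios gave 24 higher and 26 lower in miR155_KO against PU1_KI, and 20 higher and 14 lower in PU1_KI against WT. For the counts below, 27.2% of all tested genes rose and 35.3% fell in miR155_KO against WT. The shares were 17.9% and 46.4% against PU1_KI, and 23.7% and 4.03% in PU1_KI against WT.

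Among partners and inhibitors of AP-1, 7 of 13 tested rows rose and 2 fell in miR155_KO against WT. The 17 listed genes have 18 rows in the deposited table, so a gene can be counted by more than 1 row. The median log2 fold change of the 13 rows was 0.22, against -0.05 over all tested genes. Jdp2, a repressor that dimerises with Jun, stood at 15.4 ± 1.86 RPKM in miR155_KO, 4.73 ± 0.53 in PU1_KI and 2.78 ± 0.16 in WT, and was higher in miR155_KO than in WT by a log2 fold change of 2.27 ± 0.09 (adjusted p = 5.74e-14). It was also higher in PU1_KI than in WT (0.67 ± 0.09, adjusted p = 8.69e-06). Nfe2l2, the oxidative stress factor Nrf2, was at 12.7 ± 0.89 RPKM in miR155_KO, 4.48 ± 0.23 in PU1_KI and 4.16 ± 0.20 in WT. Bach1, a repressor at Nrf2 sites, was at 3.84 ± 0.17 RPKM in miR155_KO, 1.38 ± 0.17 in PU1_KI and 1.67 ± 0.10 in WT. Mafk, their small Maf partner, fell to 2.94 ± 0.32 RPKM in miR155_KO, against 5.65 ± 0.39 in PU1_KI and 5.998 ± 0.45 in WT, and Batf3 to 8.72 ± 0.76 in miR155_KO, against 15.1 ± 2.06 in PU1_KI and 12.4 ± 1.48 in WT. Between PU1_KI and WT 6 of the 13 rose and 1 fell, with Batf (0.60 ± 0.09) and Atf3 (0.41 ± 0.06) among the higher, and 4 rose with median-of-ratios scaling.

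Some genes of the wider lists hold the miR-155 seed match that was not found in the 10 members. Of 91 genes of the wider lists with a 3′ UTR, 11 hold AGCATTA, and 9 of the 11 were tested. In miR155_KO against WT 6 of the 9 rose (Bach1, Det1, Fosl2, Nfe2l2, Rps6ka3 and Spred1), 1 fell (Btg1) and 2 did not pass, and 27.2% of all tested genes rose. In PU1_KI, where miR-155 is present, 0 of the 9 were called higher than in WT by limma, also at an unadjusted p under 0.05, and 1 was called lower, while 23.7% of all tested genes were called higher there and 4.03% lower. The lower one was Bach1 (-0.21 ± 0.07, adjusted p = 0.0217), a call that ended without PU1_KI library 2 or WT library 1 or 3 (adjusted p 0.0568 to 0.0651). Btg1 and Spred1 were also called lower there with median-of-ratios scaling (3 of the 9 lower), Btg1, Spred1 and Fosl2 with quantile normalization (4 lower) and Det1 with the GC correction (2 lower). The 8-base sites of the largest risers are shown, with the match in capitals.
Bach1 3′ UTR site, chromosome 16: atgaacagtttAGCATTAAgggttaattt
Nfe2l2 3′ UTR site, chromosome 2: aaactttacaaAGCATTAAagtctcaatg

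On the route from ERK to the promoters of immediate early genes, 8 of 17 tested genes rose and 3 fell in miR155_KO against WT. Srf, which binds the CArG box, fell to 7.18 ± 0.89 RPKM in miR155_KO, against 13.2 ± 0.72 in PU1_KI and 13.0 ± 0.82 in WT (log2 fold change against WT -0.82 ± 0.07, adjusted p = 1.5e-08). Elk3, an ETS partner of Srf, rose to 7.50 ± 0.38 RPKM in miR155_KO and 6.31 ± 0.72 in PU1_KI, against 4.29 ± 0.64 in WT. The kinase genes Rps6ka3 (0.65 ± 0.06) and Braf (0.54 ± 0.06) rose in miR155_KO against WT. Between PU1_KI and WT 7 rose and 0 fell by limma, with 0 lower at an unadjusted p under 0.05, and 7 rose and 2 fell with median-of-ratios scaling. Of 11 genes of the JNK and p38 route 4 rose and 0 fell in miR155_KO against WT by limma, with 0 lower at an unadjusted p under 0.05. Of all tested genes 27.2% rose and 35.3% fell there. Map2k6, an activator of p38, was at 2.34 ± 0.13 RPKM in miR155_KO, 1.83 ± 0.19 in PU1_KI and 1.42 ± 0.10 in WT. Against PU1_KI the JNK and p38 count was 2 higher as deposited and 7 with median-of-ratios scaling.

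The Egr corepressors split. Nab1 fell to 24.9 ± 1.27 RPKM in miR155_KO and 31.2 ± 1.46 in PU1_KI, against 37.5 ± 1.40 in WT, whereas Nab2 rose to 3.75 ± 0.17 in miR155_KO and 3.57 ± 0.21 in PU1_KI, against 2.83 ± 0.29 in WT, though its call in PU1_KI ended with the GC correction. Egr4, Nr4a2 and Nr4a3 did not pass the filter. Among genes of the turnover of Jun and Fos protein or mRNA, 2 of 10 rose and 5 fell in miR155_KO against WT and 0 were called in PU1_KI against WT by limma, with 1 at an unadjusted p under 0.05 and 1 called lower under median-of-ratios scaling. Zfp36, which destabilises AU-rich mRNAs such as that of Fos, fell to 56.7 ± 2.01 RPKM in miR155_KO, against 75.6 ± 7.06 in PU1_KI and 73.5 ± 11.5 in WT. Fbxw7, a ubiquitin ligase subunit for Jun, fell to 15.6 ± 1.08 in miR155_KO, against 20.6 ± 1.05 RPKM in WT.

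Of 25 other immediate early genes, 6 rose and 14 fell in miR155_KO against WT, and 2 rose and 13 fell against PU1_KI. Their median log2 fold change against WT was -0.27, and that of all tested genes -0.05. Tnf, the cytokine, fell to 1.37 ± 0.48 RPKM in miR155_KO and 4.60 ± 0.30 in PU1_KI, against 7.14 ± 0.85 in WT. Dusp6, a phosphatase of ERK, was at 1.04 ± 0.15 RPKM in miR155_KO, 2.30 ± 0.27 in PU1_KI and 3.09 ± 0.40 in WT. Ppp1r15a, a phosphatase subunit of the stress response, was at 12.5 ± 0.99 RPKM in miR155_KO, 28.8 ± 2.05 in PU1_KI and 28.9 ± 3.36 in WT. In the other direction Nfkbia, the inhibitor of NF-kB, rose to 73.8 ± 1.41 RPKM in miR155_KO and 51.5 ± 4.22 in PU1_KI, against 33.7 ± 4.13 in WT, and Ier3 to 2.61 ± 0.47 in miR155_KO and 2.58 ± 0.55 in PU1_KI, against 1.19 ± 0.14 in WT. Between PU1_KI and WT 6 of the 25 rose and 4 fell as deposited, and 5 rose and 7 fell with median-of-ratios scaling.

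Genes closest to the members were sought by the root mean square difference of centred log2 values over the 14 libraries. Nearest to Fos were Il2rb at 0.43, Dusp1 at 0.44 and Ehd3 at 0.45, against a root mean square of 0.90 for Fos itself. Nearest to Fosb were Lax1 at 0.52, Lrrc32 at 0.56 and Il2rb at 0.56, against 1.08 for Fosb. Closest to Egr1 were Tmem108 at 0.15, 1300014I06Rik at 0.16 and Pole2 at 0.16, against 0.52 for Egr1. Il2rb stood at 0.766 ± 0.11 RPKM in miR155_KO, 2.40 ± 0.20 in PU1_KI and 4.19 ± 0.40 in WT. Dusp1, itself an immediate early phosphatase of the p38 and JNK kinases, stood at 3.18 ± 0.43 RPKM in miR155_KO, 5.34 ± 1.04 in PU1_KI and 7.46 ± 1.02 in WT.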

How the data were processed

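Polyadenylated RNA was measured in 14 libraries of 3 genotypes. The values are RPKM (reads per kilobase of gene and per M reads sequenced), which the authors computed and deposited as one table; each of its 14 value columns was matched to a library by name, with 0 left over. The submitters' processing notes name Trim Galore, TopHat and the build NCBIM37. Versions, the read counter, the gene models and the strand setting were not stated. Of 22295 rows, 63 repeat a gene and were kept as rows of their own. None of 91 pairs of columns was identical. The deposited values record no correction for base composition.

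A gene was tested when 4 or more libraries reached 1 RPKM, which left 9627. Values were taken as log2 after adding 0.5 RPKM, a scale on which changes of low genes come out too small. limma (3.58.1, R 4.3.3) fitted a mean for each genotype over the 14 libraries, with an intensity trend, and two-sided p-values were adjusted by Benjamini-Hochberg over all tested genes, with a threshold of 0.05. Every adjusted p given is from limma. The fit was checked on simulated data. Depth was worked out from the 250 lowest values of genes that span under 2500 bp. With that depth 73.2% to 81.6% of them were whole reads to within 0.01, too few to run a count test.

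Alternatives were a pseudocount of 0.1 or 1, no filter, a filter of 5 RPKM, median-of-ratios scaling, quantile normalization, no trend, 2 groups only, a replicate block and each library left out. Corrections for GC content, known for 99.0% of tested genes, were added after seeing the data.

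The members and gene lists were chosen with earlier results of these data known. From each wider list and comparison, up to 3 genes called higher and 3 called lower with the largest change could be named; Fosl2 and other holders of the seed match were named after their values were seen. For likeness, the 3 nearest genes were named for the 3 members with the widest range of genotype means. RefSeq (GRCm38.p6) gave the promoters and the microRNA, and GENCODE M21 (GRCm38) the 3′ UTRs. Tables and plots were made with Python 3.11.15 (pandas 2.3.3, numpy 2.4.6, matplotlib 3.10.9).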

Additional observations from a re-analysis of the deposited data

Results flagged for a closer look

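The first PU1_KI library stood apart from its 4 companions in both Fos genes. Fos was at 46.3 RPKM there, with a gap to the nearest library of 0.782 of the group's range, and Fosb at 7.09 RPKM, with a gap of 0.923. These were 2 of 30 groups of libraries examined, and chance gives about 1 in 20. In that library the other 8 members deviated from the mean of their genotype by -0.13 to 0.23 on the log2 scale.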

How the results depend on the processing

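Over the 10 members and 3 comparisons, 659 of 741 recomputed fold changes kept their direction and their side of the threshold, 60 lost the call, 13 gained it and 9 changed sign. The changes of sign were all in PU1_KI against WT, among genes with no call. Jun changed sign with quantile normalization (-0.0011) and the GC correction (-0.015), and ran from -0.074 to 0.22 with 1 library left out. Jund was 0.018 with the replicate block and ran from -0.17 to 0.19 with 1 library left out, and Egr2 from -0.081 to 0.011. In that comparison 3 members were called, against 0 with no filter, 1 with a filter of 5 RPKM, 0 with the replicate block, and 0 to 4 with 1 library left out. The block ended the calls of Fos (-0.61, adjusted p = 0.11), Fosb (-0.79, adjusted p = 0.0703) and Nr4a1 (0.25, adjusted p = 0.0535). In miR155_KO against WT 9 members were called, 5 with no filter and 6 to 10 with 1 library left out; the replicate block ended the call of Jund there (-0.47, adjusted p = 0.0532). Over all genes, the replicate block called 2908 in PU1_KI against WT, 6326 in miR155_KO against WT and 6461 between the mutants, and the fit without it 2667, 6017 and 6192. Correlations of same-numbered libraries ran from -0.387 to 0.466 over 13 pairs, and 7 of 26 matched their own number best. For PU1_KI and WT the 4 pairs were at 0.217, 0.0401, 0.358 and 0.12, all above 0 but 1 of them under 0.1. The cause of these changes was not tested. Fosb and Nr4a1 lie near the filter and are the members that low values limit most.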
